A study of Mus musculus with 2 samples.

Results

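Mast cells are tissue-resident leukocytes that store proteases, histamine and other mediators in granules and release them when the IgE receptor is cross-linked. Their growth and survival depend on the receptor tyrosine kinase KIT. In the mouse gut a mucosal type lies in and under the epithelium and is known for the chymases Mcpt1 and Mcpt2, while a connective tissue type, found mostly deeper in the wall, is known for Mcpt4, Cma1, tryptase and the carboxypeptidase Cpa3. The genes described here are 10 markers of these cells, 6 proteases (Mcpt1, Mcpt2, Mcpt4, Cma1, Tpsb2 and Cpa3), the receptor genes Kit, Fcer1a and Ms4a2, and Hdc, the enzyme that makes histamine. They were taken by gene symbol, with every probe set that names only that gene, and all 10 were found, on 14 probe sets, out of 18193 genes on 34945 such probe sets.

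The study measured transcripts of mouse jejunum on 2 Affymetrix Mouse Genome arrays, 1 for wild-type mice and 1 for mice labelled XBP1 knock-out, and each RNA was a pool from 3 mice. XBP1 is a transcription factor of the endoplasmic reticulum stress response that IRE1 activates by splicing its mRNA. RNA came from intestinal scrapings, so that epithelium, leukocytes and other cells of the mucosa were read together, and a difference in cell number and one in RNA per cell cannot be told apart. The labels do not give strain, age, sex, the allele or the cells that carry the deletion. Each genotype has 1 array, so nothing measures the spread between mice, no p-value is given, and precision is limited by the number of arrays.

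Values are MAS5 signals, a linear hybridisation intensity in arbitrary units, scaled to a common 75th percentile. The floor was 68.1 units, the 50th percentile over both arrays, and a gene above it on at least 1 array is called measured. By this rule 52.7% and 47.3% of probe sets exceeded the floor on the wild-type and the knock-out-labelled array, and 70.5% of genes were measured. Signals below the floor were raised to it, log2 ratios are given as knock-out-labelled minus wild-type, and their median over measured genes was -0.11. A ratio with 1 array at the floor is a bound. Counts past 2-fold took such bounds as they stood, so they can miss larger differences. The brightest of 4 probe sets of Xbp1 read 8143 and 6782, a log2 ratio of -0.26, and the others gave -0.15, 0.06 and -0.24. Which part of the gene was removed is not in the labels, so these values check neither label, and every direction below rests on the labels.

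Both mucosal mast cell chymases were higher in the knock-out-labelled pool. Mcpt1 was 4.23-fold higher and Mcpt2 3.05-fold higher, while Cpa3 was at least 1.57-fold lower and Kit differed by 1.12-fold or 1.25-fold, in opposite directions on its probe sets. The other 6 genes, which include both IgE receptor chains and the remaining connective tissue proteases, lay below the floor on both arrays. Of the 4 measured genes, 2 were thus higher by 2-fold or more and 0 were lower by that much, beside 2.25% and 5.08% of all measured genes. The median log2 ratio of the measured members was 0.72, and since only 4 of 10 were measured it does not describe the whole list.

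**Figure D1:**
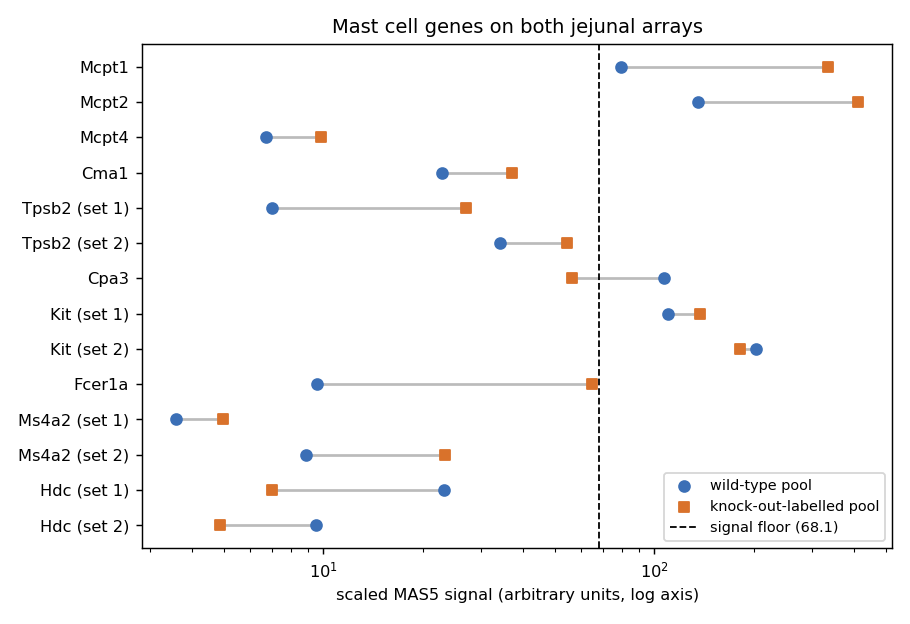
Scaled MAS5 signal (log axis) of each of the 14 probe sets on the wild-type array (circles) and the knock-out-labelled array (squares), with the floor of 68.1 as a dashed line. Mcpt1 and Mcpt2 lie above the floor on both arrays and are higher in the knock-out-labelled pool, Cpa3 crosses the floor in the other direction, and 9 probe sets stay below it on both.

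Mcpt1 encodes mast cell protease 1, a chymotrypsin-like enzyme that mucosal mast cells release during intestinal worm infection and food anaphylaxis. Its single probe set read 79.2 in wild-type jejunum and 335 in the knock-out-labelled pool, a log2 ratio of 2.08. The wild-type reading lay just above the floor, so the size of this ratio leans on a dim signal. Of 12826 measured genes, 15, Mcpt1 included, had a ratio as high. Only 10297 were above the floor on both arrays. For the rest the ratio is a bound, so such ranks depend on the floor.

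Mcpt2 encodes mast cell protease 2, a closely related member of the same family. It read 135 in wild-type jejunum and 413 in the knock-out-labelled pool, a log2 ratio of 1.61 that 53 measured genes reached or passed. Both chymases were thus dim in wild-type jejunum and several times the floor in the other pool. Each was read by a single probe set whose identifier carries no suffix for shared sequence. Probe sequences were not used here, so cross-reading between these similar transcripts was not examined.

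Dim genes can scatter more between arrays than bright ones, which was not measured here, so genes of similar signal are given. Among 2584 genes above the floor on both arrays with a mean signal from 115 to 334, which brackets both chymases by 0.5 log2 units on either side, the robust SD of the log2 ratio was 0.58 around a median of -0.09. In that window 99 genes, or 3.83%, were at least 2-fold higher, 18 reached the ratio of Mcpt2 and 4 that of Mcpt1, these genes included. Because both readings had to exceed the floor, the dimmest genes of the window could reach neither ratio. Genes at the floor on 1 array were left out, so the counts of 18 and 4 can run low. For comparison, probe sets of the same gene with signals above 2 times the floor differed with an SD of 0.30 in log2 ratio over 3412 genes, a technical scatter that holds no variation between mice.

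**Figure D2:**
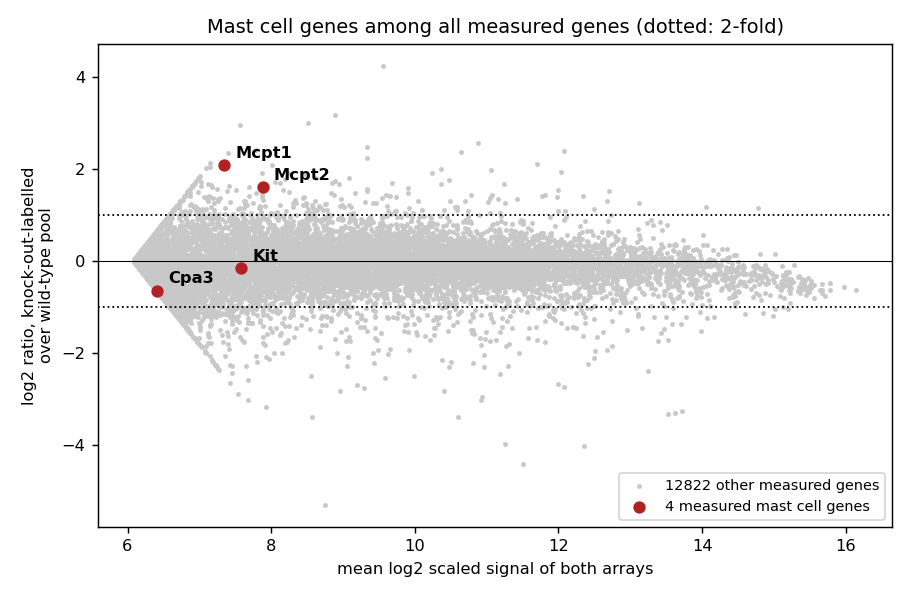
Log2 ratio of the knock-out-labelled over the wild-type pool against the mean log2 scaled signal, for 12826 measured genes (grey points, mast cell genes in red) with 2-fold marked by dotted lines. Mcpt1 at 2.08 and Mcpt2 at 1.61 lie in the upper fringe of genes of similar signal, Kit lies near 0, and Cpa3 lies on the edge that the floor sets.

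Mcpt1 and Mcpt2 are neighbours in a cluster of granule protease genes on mouse chromosome 14. In the RefSeq gene order of assembly GRCm38.p6, 21 genes and pseudogenes run from Cma1 to the granzyme gene Gzmb, and 14 of them have a probe set of their own. Only 3 of these 14 had a signal above the floor, namely Mcpt1, Mcpt2 and Gzmb. Gzmb, a protease of cytotoxic and intraepithelial lymphocytes, read 3490 in wild-type jejunum and 4512 in the knock-out-labelled pool, a log2 ratio of 0.37. Mcpt4, 2 places beyond Mcpt2 in the gene order, read 6.71 and 9.84. Mcpt8, the basophil protease next to Mcpt4, read 9.27 and 18.2, and Ctsg, the gene of cathepsin G, 13.2 and 15.3. A probe set shared by Cma2 and Mcpt9 was below the floor on both arrays too. The 2 chymases thus stood alone among the mast cell genes of this cluster in being measured.

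The RefSeq promoter table matched 8 of the 10 genes, all but Mcpt2 and Tpsb2. The 250 bases before the start of Mcpt1, the gene with the highest ratio here, are shown with those of Mcpt4, which was below the floor on both arrays, to show how alike the flanks of a measured and an unmeasured chymase are. Capitals mark GATA, the core letters read by GATA factors, of which GATA1 and GATA2 act in mast cells. Both windows are from GRCm38.p6, that of Mcpt1 at chr14:56017714-56017963 on the plus strand and that of Mcpt4 at chr14:56062311-56062560 on the minus strand, written 5′ to 3′ along the gene.
Mcpt1: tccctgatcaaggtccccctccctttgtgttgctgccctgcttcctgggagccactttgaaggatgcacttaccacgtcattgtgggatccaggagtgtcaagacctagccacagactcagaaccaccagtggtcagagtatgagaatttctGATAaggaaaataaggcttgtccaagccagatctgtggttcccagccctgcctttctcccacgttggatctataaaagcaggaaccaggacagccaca
Mcpt4: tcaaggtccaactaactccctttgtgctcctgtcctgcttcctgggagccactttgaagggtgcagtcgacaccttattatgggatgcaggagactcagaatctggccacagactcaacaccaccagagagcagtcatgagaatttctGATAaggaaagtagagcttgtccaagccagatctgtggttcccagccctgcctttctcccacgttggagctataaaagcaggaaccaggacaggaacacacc

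In a global alignment 209 of 258 columns were identical between these windows, or 81.0%, against 45.2% between Mcpt1 and the window of Cma1, the remaining chymase with a match. Each of the 2 windows printed held 1 GATA match when both strands were searched, beginning 98 bases before the start in Mcpt1 and 102 in Mcpt4. Such a match was present in 54.1% of 27025 promoter windows of the same length, so its presence is common. The E-box pattern CANNTG, which reads the same on both strands, was found in neither, though 66.0% of windows held it. The windows of Cma1 and Cpa3 held 3 GATA matches each, and that of Kit held 0. These are descriptions of letters in a window and not of factor binding.

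Mcpt4, Cma1 and Tpsb2 encode the main chymases and the tryptase of connective tissue mast cells. Mcpt4 read 6.71 and 9.84 in the wild-type and the knock-out-labelled pool. Cma1, also known as mast cell protease 5, read 22.8 and 37.1. The 2 probe sets of Tpsb2, the gene of mast cell protease 6, read 34.1 and 54.4 on the brighter one and 6.99 and 26.9 on the dimmer one. All these readings were below the floor, so no fold is given and no level is claimed in either pool.

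Cpa3 encodes the carboxypeptidase that mast cell granules store beside the chymases. It read 107 in wild-type jejunum and 56.3 in the knock-out-labelled pool, which is below the floor. Its log2 ratio was therefore at most -0.65, opposite in direction to both mucosal chymases. At a threshold of 1.5-fold, Cpa3 was the 1 member counted as lower, beside 16.3% of all measured genes.

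Kit encodes the receptor for stem cell factor, which mast cells share with interstitial cells of Cajal, the pacemaker cells of gut muscle. The brighter of its probe sets read 203 in wild-type jejunum and 181 in the other, a log2 ratio of -0.16. The dimmer one read 110 and 138, a log2 ratio of 0.33. The probe sets disagreed in sign, and with the median over both the ratio was 0.08. Of the 5 genes listed for interstitial cells of Cajal, only Ano1, a chloride channel gene, at 0.57, and Prkcq, a protein kinase C gene, at most -0.70, were measured.

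Fcer1a and Ms4a2 encode the alpha and beta chains of the high-affinity IgE receptor. Fcer1a read 9.56 in wild-type jejunum and 64.9 in the knock-out-labelled pool, where it stopped just short of the floor. Ms4a2 read 8.83 and 23.4 on its brighter probe set and 3.58 and 4.96 on the other. Fcer1g, the gamma chain that many other leukocytes use, was named after its value was seen and was measured at 519 and 445, a log2 ratio of -0.22. The chains that define the mast cell form of the receptor were thus below the floor on both arrays, and the shared chain was not.

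Hdc encodes histidine decarboxylase, also made by endocrine cells and some myeloid cells. Its probe sets read 23.2 and 6.99 on the brighter one and 9.49 and 4.88 on the other, all below the floor. Of the 9 member probe sets below the floor on both arrays, 7 read higher in the knock-out-labelled pool and 2, both of Hdc, lower. Over all 12892 named probe sets below the floor on both arrays, 42.9% read higher in that pool. No direction is drawn from readings in this range.

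Of 15 other mast cell granule and mediator genes, 9 were measured and 0 of them had a ratio past 2-fold in either direction. Their median log2 ratio was -0.16 beside -0.11 over all measured genes. Hpgds read 87.3 and 14.3, below the floor, so its ratio of at most -0.36 is a bound. With a floor at the 25th percentile 1 of 10 genes was at least 2-fold lower, beside 15.2% of all genes measured there. With labelling spikes made equal 1 of 9 was at least 2-fold higher, beside 5.58% of all measured genes. With hybridisation spikes made equal 2 of 8 were, beside 20.6%. Alox5ap, the protein that presents arachidonic acid to 5-lipoxygenase, read 270 and 471, a log2 ratio of 0.80 and the highest of the list. Ltc4s, the synthase of leukotriene C4, read 453 and 315, a log2 ratio of -0.52 and the lowest. Mcpt8, Ctsg, the tryptase gene Tpsab1 and the amine transporter gene Slc18a2 were below the floor on both arrays.

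Receptors and lineage factors gave 7 measured genes of 12 listed, again with 0 past 2-fold in either direction and a median of -0.37. Gata2, a transcription factor needed for the mast cell lineage, read 153 and 77.8, a log2 ratio of -0.97 and the lowest of the list. Mitf, a transcription factor downstream of KIT, read 67.6, below the floor, and 86.4, a log2 ratio of at least 0.34 and the highest. Gata1 and Tal1 were below the floor on the knock-out-labelled array, so their ratios of at most -0.47 and at most -0.37 are bounds too. The range of this list is thus not settled. With a floor at the 25th percentile 1 of its 8 measured genes was at least 2-fold lower, beside 15.2% of all genes measured there.

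Signalling genes that act below the IgE receptor and KIT were mostly measured, 21 of 24, though other leukocytes and epithelium use them too. Of these, 0 were past 2-fold in either direction, 15 ratios were below 0 and the median was -0.12. With a floor at the 25th percentile 1 of 23 was at least 2-fold lower, beside 15.2% of all genes measured there. With the hybridisation spikes made equal 3 of 21 were higher, beside 20.6%. These counts rest on 1 probe set per gene. Inpp5d was counted at -0.12, though another of its probe sets, above the floor on both arrays, gave -1.02. Stim1 was counted at -0.57 and had at least 0.90 on another. Less the median of all measured genes, that of this list ran from -0.26 to 0.04 over 11 settings. Syk, the kinase that the gamma chain recruits, read 514 and 283, a log2 ratio of -0.86 and the lowest, while its next brightest probe set gave -0.38. Pik3cd, a phosphoinositide 3-kinase of leukocytes, read 342 and 431, a log2 ratio of 0.33 and the highest, but another of its probe sets gave -0.75, so its direction is unsettled.

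Signals for mast cell growth, homing and maturation gave 11 measured genes of 22, with 0 past 2-fold and a median of 0.08. With a floor at the 25th percentile, of 15 measured, 1 was at least 2-fold higher and 3 lower, beside 6.85% and 15.2% of all genes. Loess and labelling spikes made equal gave 1 higher each, beside 2.95% and 5.58%. Hybridisation spikes made equal gave 4 higher, beside 20.6%. Madcam1, the endothelial address molecule of the gut, read 42.9, below the floor, and 126, a log2 ratio of at least 0.89 and the highest. Vcam1, another endothelial adhesion molecule, read 134 and 75.2, a log2 ratio of -0.84 and the lowest. Named after their values were seen, Kitl, the ligand of KIT, read 1686 and 2049, a log2 ratio of 0.28, and the alarmin gene Il33 read 2099 and 3154, a log2 ratio of 0.59. Tgfb1, whose product induces Mcpt1 in cultured mast cells, had 0.33 on its brighter probe set and at most -0.31 on the other, and Itgb6, a chain of the epithelial integrin that activates it, had 0.19. Of the measured ratios of this list, 6 were above 0 and 5 below. Below 0, beside Vcam1, were Itga4 at -0.40, Itgae at -0.12 and Il18 at -0.05. The integrin gene Itgav had -0.43 on its brighter probe set and 0.78 on the other. The cytokine genes Il3, Il4, Il9 and Il13 were below the floor on both arrays.

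Receptors, breakdown enzymes and inhibitors for mast cell mediators gave 8 measured genes of 17, with 2 at least 2-fold lower, 0 higher and a median of -0.55. Over all measured genes 5.08% were lower and 2.25% higher by that much. Hrh1, a histamine receptor gene, read 143 and 14.6, below the floor on the second array, and was at least 2.10-fold lower. Hrh2, another histamine receptor gene, read 143 and 70.1, a log2 ratio of -1.03. The count of lower genes depended on the scaling and the floor. The values as deposited left 1 gene past 2-fold and loess left 0, beside 4.14% and 3.77% of all measured genes. With the hybridisation spikes made equal 0 were lower and 1 was higher, beside 0.982% and 20.6%. With a floor at the 25th percentile 6 of 14 were lower, beside 15.2% of all genes measured there. Edn1, the gene of endothelin 1, a peptide that mast cell proteases degrade, had the highest ratio at 0.60. Aoc1, the diamine oxidase of enterocytes that degrades histamine, read 28142 and 16142, a log2 ratio of -0.80 and was named after its value was seen.

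**Figure D3:**
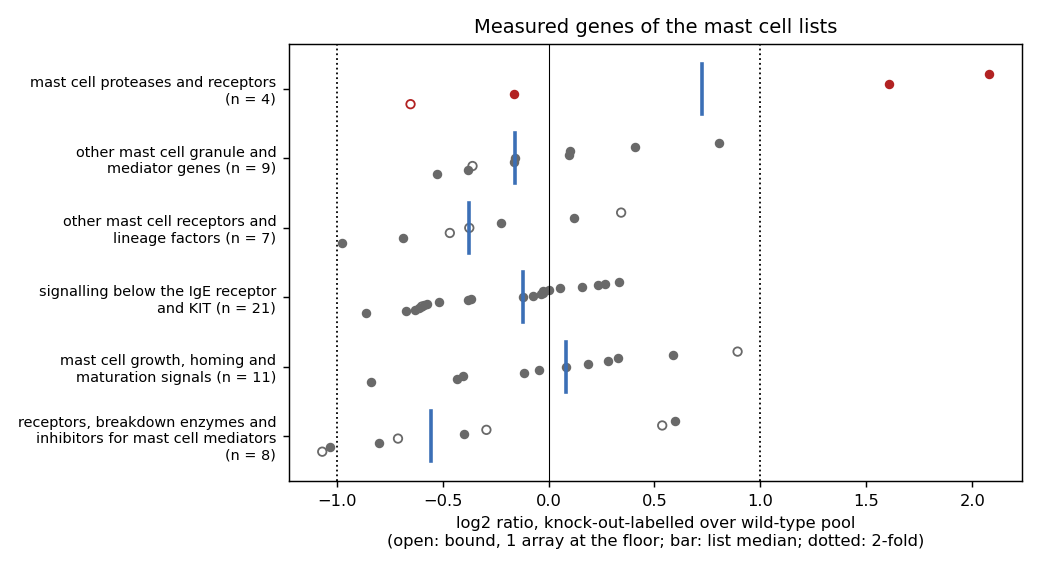
Log2 ratio of each measured gene (points, open where 1 array was at the floor and the ratio is a bound) in the list of 10 mast cell genes (red) and in 5 related lists, with list medians as bars and 2-fold as dotted lines. Mcpt1 and Mcpt2 at 2.08 and 1.61 are the points past 2-fold on the higher side, and Hrh1 and Hrh2 those on the lower side.

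Markers of other cells that could share these genes were read on the same arrays, and their part in the differences of Mcpt1 and Mcpt2 was not tested. All 6 general leukocyte genes had ratios below 0, though all 6 were above 0, with a median of 0.56, with the hybridisation spikes made equal, and the list had a median of -0.22 and a summed signal of 6199 in wild-type jejunum and 5239 in the knock-out-labelled pool. Of 10 T cell genes, 7 were measured with a median of -0.41, which turned to 0.33 with the hybridisation spikes made equal, and the sum went from 21971 to 18335. Less the median of all measured genes, the medians of these lists ran from -0.18 to -0.06 and from -0.35 to -0.24 over 11 processing settings. Basophil genes were measured for 2 of 5, with a median of -0.53 and sums of 444 and 327, and the defining gene Mcpt8 was below the floor. For eosinophils 1 of 5 was measured, Siglecf at 0.80, sums were 297 and 324, and Prg2 and Epx were below the floor. Neutrophil genes were measured for 5 of 9, with a median of 0.57 and sums of 532 and 751, from Mpo at most -0.91 to Ltf, which was at least 2.16-fold higher, while Elane was below the floor. That median was the ratio of Mmp9, whose other probe set gave -0.04. With the median over probe sets the neutrophil median was 0.27. Less the median of all measured genes, it ran from 0.11 to 0.72 over 11 settings.

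For type 2 innate lymphoid cells 3 of 6 genes were measured, with a median of -0.35 and sums of 368 and 275. Smooth muscle genes were measured for 8 of 9, with a median of -0.26 and sums of 6929 and 6096. Connective tissue genes were measured for 6 of 7, with a median of 0.23 and sums of 1746 and 2391. In that list Col1a1 was at least 2.24-fold higher on one probe set and had 0.11 on another. Enterochromaffin genes, which share Tph1 with mast cells, were all measured, 5 of 5, with a median of 0.09 and sums of 5723 and 5274. The genes for interstitial cells of Cajal summed to 243 and 183.

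Markers of the labelled tissue were bright on both arrays. All 9 general epithelial genes were measured, with a median of -0.47 and sums of 242660 and 181050. Enterocyte genes were measured for 7 of 8, with a median of -0.79 and sums of 386910 and 230837. Less the median of all measured genes, the enterocyte median ran from -0.73 to -0.21 over 11 settings, and the epithelial median from -0.40 to 0.03. After quantile normalization the epithelial median itself was 0.02. In the enterocyte list Treh, trehalase, had -1.46 and Lct, lactase, -1.16. The summed signal of Mcpt1 and Mcpt2 was 215 and 748, and that of the other 8 mast cell genes, 6 of them below the floor, was 415 and 434. Of these 8, Kit read 203 and 181 on its brighter probe set and Cpa3 107 and 56.3. The rest of that sum is readings below the floor, so it does not show an unchanged level.

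The differences of both chymases were examined under each processing alternative. Over the 10 settings in which Mcpt1 was measured, its log2 ratio ran from 2.08 to 2.72, at least 2-fold higher in all 10. Mcpt2 was at least 2-fold higher in 10 of 11 settings, with a highest value of 2.39. Much of this agreement was fixed in advance. Each chymase has 1 probe set without a suffix, above the floor on both arrays. The lower floor and both probe set rules therefore had to return the same 2.08 and 1.61. Deposited values and equal trimmed means were nearly the same scaling, with 2.18 and 1.70 in both. The exception was the floor at the 75th percentile, 337 units, where Mcpt1 was not measured and the wild-type reading of Mcpt2 was raised to the floor, which left a ratio of at least 0.29. Cpa3 stayed below 0 in its 10 settings, from -0.93 to -0.14, and Kit changed sign, with 3 of 9 values above 0. With a floor at the 25th percentile 9 of the 10 genes were measured and 3 were at least 2-fold higher, beside 6.85% of all genes measured there, the third being Fcer1a at a log2 ratio of at least 1.73.

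**Figure D4:**
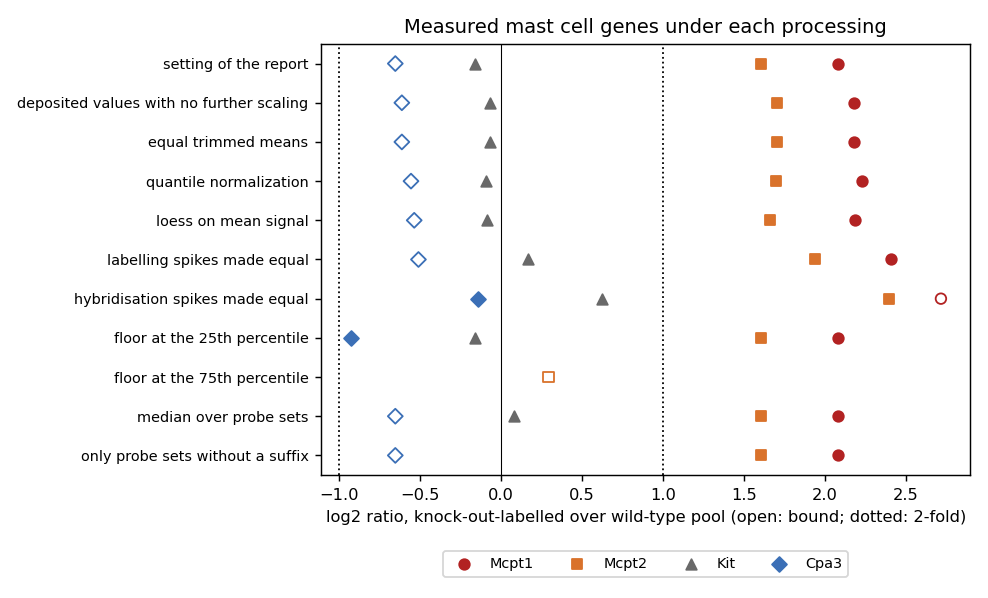
Log2 ratio of the 4 measured mast cell genes (horizontal axis, 2-fold dotted, open symbols for bounds) under each processing (rows). Mcpt1 and Mcpt2 lie above 1 in each row but that of the floor at the 75th percentile, Cpa3 lies below 0, and Kit lies on either side of 0.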

How the data were processed

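The deposited table holds 1 intensity per probe set and array, on a linear scale, and per the submitters' processing notes these are MAS5 signals. Neither a software version nor detection calls are in the sources used here. Of 45101 probe sets, 64 controls were left out, 932 name several genes and 9160 are unnamed here. Symbols came from the platform annotation and were updated by Entrez number through RefSeq GRCm38.p6 (99.4% matched). Arrays were scaled to the geometric mean of their 75th percentiles, by factors of 1.034 and 0.967, floored at the 50th percentile and log2-transformed. Each gene was read from the probe set whose floored signal had the highest mean. No test was possible with 1 array per group, and 2-fold counts and medians are given. Alternatives covered 6 scalings, 2 floors, 2 probe set rules and thresholds of 1.5-fold and 3-fold. The named genes are all members, both ends of each related list and list genes past 2-fold. Fcer1g, Kitl, Il33, Tgfb1, Itgb6, Itgav, Itga4, Itgae, Il18, Aoc1, Hpgds, Gata1, Tal1, Inpp5d, Stim1, Mmp9 and the neighbours of the chymases were named outside this rule, after their values were seen. The procedure was tested on simulated data, with folds placed only in genes brighter on average than both chymases. Recovery of a fold in genes as dim as Mcpt1 and Mcpt2 was therefore not tested. Members and lists were chosen with earlier results of these data known. Python 3.11.15, numpy 2.4.6, pandas 2.3.3, statsmodels 0.14.6 and Biopython 1.88 were used.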

Additional observations from a re-analysis of the deposited data

How the results depend on the processing

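The count of mast cell genes at least 2-fold higher stayed at 2 or 3 except with the floor at the 75th percentile, where it was 0 because only Mcpt2 was measured, with a median of 0.29. The count of lower genes was 0 throughout, and 1 at the 1.5-fold threshold. The median over measured members, 0.72, moved to 0.10 after quantile normalization, 0.15 after loess, and 0.17 with the labelling spikes made equal, as Fcer1a crossed the floor there, and to 1.61 with probe sets without a suffix, which leave out Kit. With labelling and hybridisation spikes made equal the median of all measured genes was 0.20 and 0.62, so ratios there are read relative to it, and Mcpt1 had 2.41 and at least 2.72. The member median in these settings, 0.17 and 0.49, was below that of all measured genes. Less the median of all measured genes, the member median ran from -0.14 to 1.72 over 11 settings. No paired analysis was possible because there is 1 array per group. Signal near the floor limits Mcpt1 and Cpa3, and signal below it the 6 members that were not measured.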
